A study of Drosophila melanogaster with 2 samples.

Results

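The genes described here are 63 protein-coding genes of Drosophila melanogaster that encode RNA polymerase II, the general transcription factors that place it at promoters, and the Mediator complex. They were chosen by gene symbol among 13945 protein-coding genes of the 6 main arms. The symbols starting with Polr2 gave 13 polymerase II subunit genes, those starting with TfII gave 9 factor genes, Taf followed by a digit together with Tbp gave 16 genes, and MED followed by a digit gave 25 Mediator genes. These subgroup names follow the symbols alone, and whether each product is a stable part of its complex was not checked. The rule itself uses the symbols and no measured value. Genes of the same machinery that carry other names, such as those of TFIIH, are given separately further on.

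The data were lists of chromatin immunoprecipitation peaks for the fly protein CG14441. There was 1 group of 2 biological replicates: whole embryos collected from 0 to 24 h of development, from transgenic flies of the strain CG14441-GFP, in which CG14441 carries an eGFP tag, precipitated with an antibody against GFP. The group held every tissue and stage of that interval, the tag was part of every sample, and no group without the tag or at another age was analysed here. A peak marks a place where precipitated fragments were enriched over a control alignment, its summit is the point of strongest enrichment, and its signal is the peak caller's own value, whose scale the sources used here do not state. Read counts are not part of the lists, which leaves the depth behind each value unknown. With 1 group there was no comparison between conditions.

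RNA polymerase II transcribes all protein-coding genes. It is positioned by the general factors: TFIID, which consists of the TATA-binding protein Tbp and the TBP-associated factors encoded by the Taf genes, and the factors TFIIA, TFIIB, TFIIE, TFIIF and TFIIH. Mediator is a large complex that carries the input of sequence-specific factors to the polymerase. Most of this machinery is needed in nearly every cell of an embryo, and most of its genes are broadly expressed. Many fly genes of this kind start back to back with a neighbour on the opposite strand, so that a single stretch of DNA between the start sites serves both.

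That stretch is shown for 6 member genes with strong peaks, chosen as examples that cover polymerase II, a general factor and Mediator and whose stretch holds no annotated exon. Each line gives all bases between the transcription start site (TSS) of the neighbour and the TSS of the member, read 5′ to 3′ on the member's strand, so that the member's own start follows the last base. Coordinates are in dm6, and the bases come from the RefSeq copy of release 6. Capitals mark the letters CACTG or their reverse complement CAGTG, which are part of sequences more frequent at the other peaks of the list than in their flanks.
Polr2H (chr3L:21728807-21728931, plus strand): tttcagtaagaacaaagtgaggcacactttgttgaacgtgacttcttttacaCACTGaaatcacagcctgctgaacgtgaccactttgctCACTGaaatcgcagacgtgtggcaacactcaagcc
Polr2J (chr2L:17410407-17410640, minus strand): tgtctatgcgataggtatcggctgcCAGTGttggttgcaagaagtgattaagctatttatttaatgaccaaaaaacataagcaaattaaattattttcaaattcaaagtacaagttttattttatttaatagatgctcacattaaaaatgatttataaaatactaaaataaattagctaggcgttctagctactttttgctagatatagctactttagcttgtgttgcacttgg
Polr2B (chr3R:14125549-14125790, plus strand): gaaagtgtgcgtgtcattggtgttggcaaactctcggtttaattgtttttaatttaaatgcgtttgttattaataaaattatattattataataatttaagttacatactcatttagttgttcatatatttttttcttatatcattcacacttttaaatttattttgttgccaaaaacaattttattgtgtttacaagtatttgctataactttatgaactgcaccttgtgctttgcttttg
TfIIA-L (chr3R:27253183-27253429, plus strand): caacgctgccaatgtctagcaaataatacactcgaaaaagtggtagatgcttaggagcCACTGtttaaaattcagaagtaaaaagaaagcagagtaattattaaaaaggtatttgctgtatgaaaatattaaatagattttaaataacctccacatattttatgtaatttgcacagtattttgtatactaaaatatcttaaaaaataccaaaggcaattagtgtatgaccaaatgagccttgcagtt
MED27 (chr3R:5654862-5655138, plus strand): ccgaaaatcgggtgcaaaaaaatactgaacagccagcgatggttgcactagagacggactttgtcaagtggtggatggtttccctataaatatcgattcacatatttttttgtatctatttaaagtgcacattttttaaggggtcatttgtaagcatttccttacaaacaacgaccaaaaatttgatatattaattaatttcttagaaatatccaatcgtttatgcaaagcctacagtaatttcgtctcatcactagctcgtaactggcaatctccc
MED30 (chr3L:654090-654362, minus strand): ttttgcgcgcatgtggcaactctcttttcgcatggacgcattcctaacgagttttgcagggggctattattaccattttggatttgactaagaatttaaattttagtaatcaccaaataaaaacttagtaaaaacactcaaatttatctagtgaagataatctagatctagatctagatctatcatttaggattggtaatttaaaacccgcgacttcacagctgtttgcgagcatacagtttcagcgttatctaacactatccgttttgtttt
The summit lay at base 14 of the 125 shown for Polr2H, at base 90 of 234 for Polr2J, at base 189 of 242 for Polr2B, at base 60 of 247 for TfIIA-L, at base 167 of 277 for MED27 and at base 83 of 273 for MED30. The Polr2H stretch holds the marked letters 2 times, those of Polr2J and TfIIA-L 1 time each, and the other 3 stretches do not hold them.

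Of the 63 genes, 15 had a summit of the main set at a promoter, meaning no more than 500 bp from any annotated TSS. This is 23.8%, against 18.9% of all protein-coding genes. The main set is the authors' conservative list, of which 5115 peaks fall on the main arms. Each of the 15 genes had exactly 1 such summit. By subgroup the share was 30.8% of polymerase II subunit genes (4 of 13), 28% of Mediator genes (7 of 25), 22.2% of TfII genes (2 of 9) and 12.5% of Taf genes with Tbp (2 of 16). The subgroups are small, and their shares are a description of these genes. Most genes of the general machinery, 48 of 63, had no main-set summit at a promoter.

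**Figure D1:**
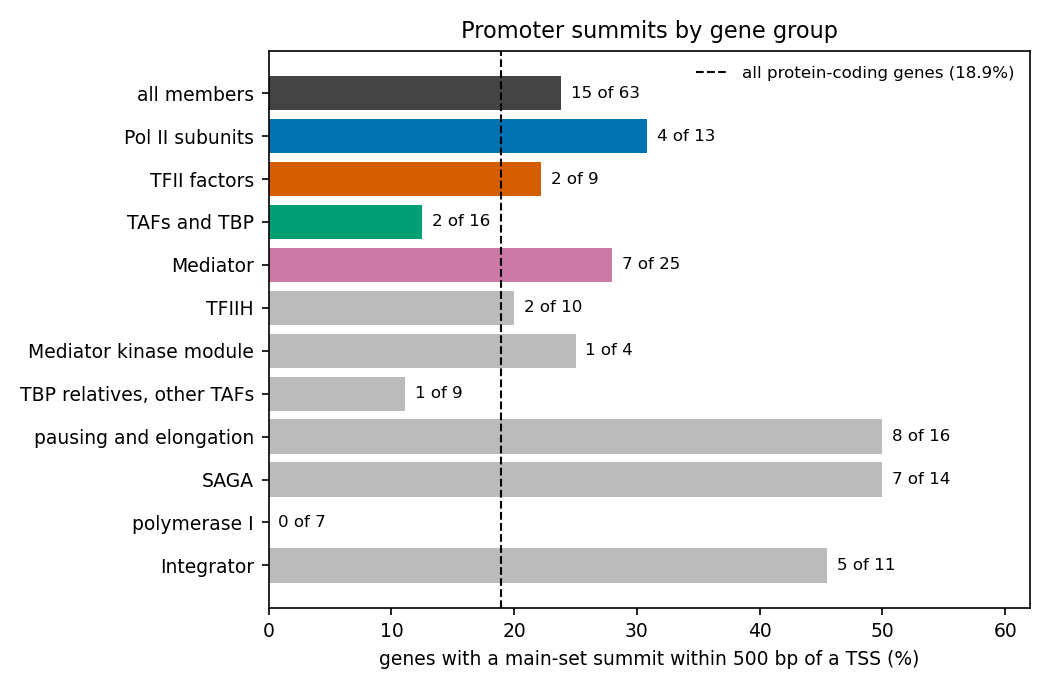
Percent of genes (horizontal axis) that have a promoter summit in the main set, counted up to 500 bp from a TSS, for the 63 members, their 4 subgroups and 7 lists of related genes; the numbers beside the bars are genes with a summit of all genes in the group, and the dashed line is the share over all protein-coding genes. The members stand at 23.8% beside 18.9%, the pausing and elongation and SAGA lists at 50%, and polymerase I at 0 of 7 genes.

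Among the polymerase II subunit genes, Polr2H, which encodes a subunit that all nuclear RNA polymerases share, had the strongest signal, 441, with 273 in the first replicate column and 172 in the second (mean 222 ± 71.2, SD, n = 2). Polr2B, which encodes the second largest subunit and forms the catalytic centre together with the largest, had a signal of 380 and nearly equal replicate columns of 195 and 191 (193 ± 2.56, n = 2). Polr2J, which encodes a small subunit of the assembly core, had 289, with columns of 179 and 112 (146 ± 47.0, n = 2). The first column was the higher one in all of these genes, by very different amounts. Polr2F, another subunit shared between polymerases, was the weakest member of all at 113, with columns of 67.9 and 43.2 (55.6 ± 17.5, n = 2). The gene of the largest subunit, Polr2A, had no main-set summit.

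Of the TfII genes, TfIIA-L, which encodes the large subunit of the factor that steadies TBP on promoter DNA, had a signal of 414, with columns of 242 and 166 (204 ± 53.5, n = 2). Its summit lay at the downstream of its 2 annotated start sites, which are 2318 bp apart. TfIIB, the factor that links TBP to the polymerase, had 158, with columns of 84.5 and 71.9 (78.2 ± 8.90, n = 2). Both subunits of TFIIE, both of TFIIF and the elongation factor gene TfIIS were without a main-set summit.

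Of the TFIID genes, Taf5, a core subunit, had a signal of 395, with columns of 244 and 153 (198 ± 64.2, n = 2). Taf4, another core subunit, had 191, and here the second column was higher, 100 against 84.5 (92.3 ± 11.0, n = 2). The Taf4 summit lay upstream of an alternative start site 578 bp into the annotated gene. It was thus inside the annotated gene and downstream of the gene's first start. The other 14 genes of this subgroup, Tbp and Taf1 among them, had no main-set summit.

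Of the Mediator genes, MED27 had the strongest signal of all members, 490, with columns of 285 and 194 (240 ± 64.1, n = 2). MED30 followed at 351, with close columns of 183 and 174 (178 ± 6.06, n = 2). Both encode subunits of the core complex. The genes of the middle module, which joins the parts of Mediator, included MED7 at 247, with columns of 155 and 91.8 (124 ± 44.9, n = 2). MED31, of the same module, stood at 211 with columns of 103 and 111 (107 ± 6.02, n = 2), and MED4 at 177 with columns of 104 and 69.9 (87.0 ± 24.3, n = 2). MED7 had the largest gap between replicate columns, relative to their mean, of all 15 genes. MED17, which encodes a central subunit of the head module that contacts the polymerase, had 230, with columns of 113 and 96.3 (104 ± 11.6, n = 2). MED16, a tail subunit, had 151 with columns of 73.1 and 75.9 (74.5 ± 1.98, n = 2).

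**Figure D2:**
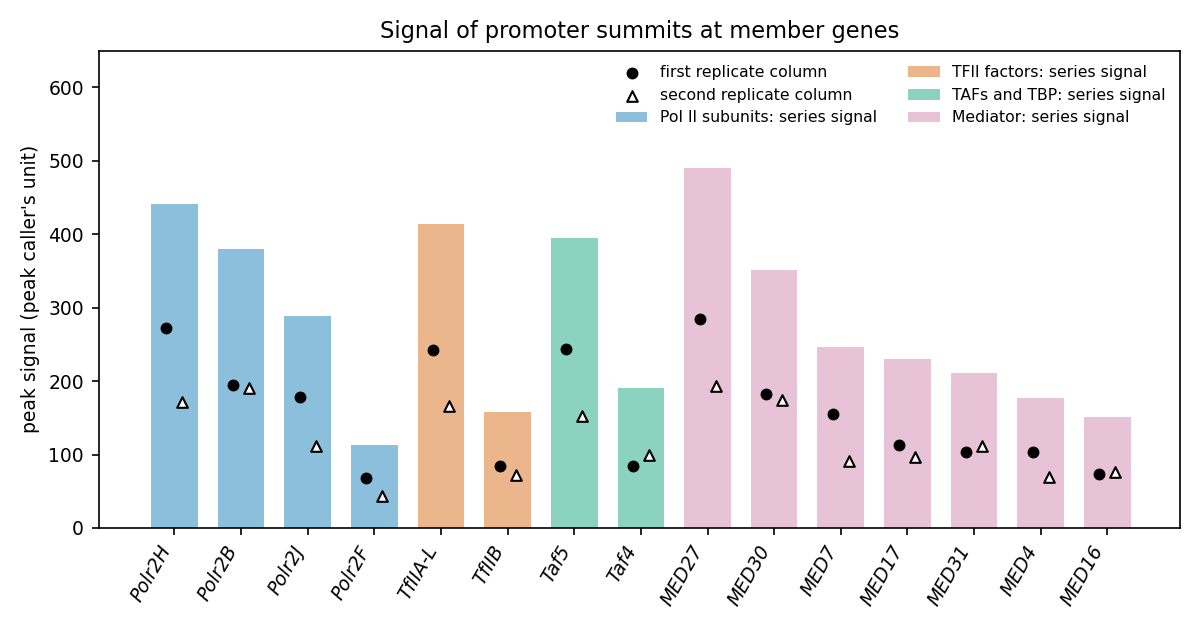
Peak signal (vertical axis, the peak caller's unit) of the 15 members with a main-set promoter summit, ordered by subgroup; bars are the signal of the series peak and the 2 points in each bar are the replicate columns. Series signals run from 113 at Polr2F to 490 at MED27, and the first column is the higher one in 12 genes.

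The signals of the members were in the upper part of the range found at promoters. Their median was 247, against 130 over all 2141 promoter summits of the main set (quartiles 87.9 and 233) and 136 when these are counted once per gene. Of the 15 summits, 14 were above the promoter median, 8 above the upper quartile and 0 below the lower one, and their ranks ran from 166 to 1252 among the promoter summits. The ratio of the medians was 1.90 for the series signal, 2.21 in the first replicate column (155 against 70.3) and 1.72 in the second (111 against 64.6). Both columns were read at summits of the main set. In the list of replicate 1 alone the ratio was lower, 1.31, and in that of replicate 2 alone it was 1.48. The medians of the subgroups were 335 for polymerase II, 293 for Taf and Tbp, 286 for TfII and 230 for Mediator, with ranges that overlap throughout.

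The replicate columns stood farther apart at the members than at promoters in general. The first was higher in 12 members and the second in 3 (Taf4, MED16 and MED31), and over all promoter summits the first was higher in 65.2%. The median ratio of the first to the second column was 1.46 among members, 1.12 over all promoter summits and 1.17 over the 1087 promoter summits whose signal lay in the members' range. The SD of the columns was 1.33% to 36.3% of their mean, with a median of 26.2%, against 15.8% over all promoter summits. The columns carry no replicate number. To 3 significant digits, the first column equalled the signal in the list of replicate 1 in all 15 genes, and the second that in the list of replicate 2 in the 14 genes present there. Nothing in the sources used here says whether the replicates came from separate collections of embryos, so their spread may be partly technical.

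Other deposited lists gave similar members. The less strict series list had a promoter summit at 18 of the 63 genes (28.6%, against 20.9% of all genes), and added MED6 at a signal of 86.2, Polr2A at 75.1 and Taf2 at 124. The list of replicate 1 alone had 17 (27%, against 15.9% of all genes) and that of replicate 2 alone had 15 (23.8%, against 15.5%). Of the 15 main-set members, 14 were in all 4 lists, and MED17 was absent from the list of replicate 2. The replicate 1 list added Polr2A and Taf2, and the replicate 2 list added MED6.

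All 15 summits lay upstream of the member's nearest TSS, from 54 bp at Polr2B to 360 bp at TfIIB, with a median of 114 bp. Between 50 and 200 bp upstream lay 14 of the 15. Over all 2954 pairs of a gene and a summit within the window, 84.0% of summits were upstream and 46.1% lay between 50 and 200 bp upstream. This band was not among the planned measures and closely fits the members' own positions, so its shares are only a description. The median position was -114 bp for the members and -127 bp over all pairs. The summit nearest to the edge of the window on the inside was that of TfIIB at 360 bp, and the nearest one outside was 829 bp upstream of TfIIS.

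**Figure D3:**
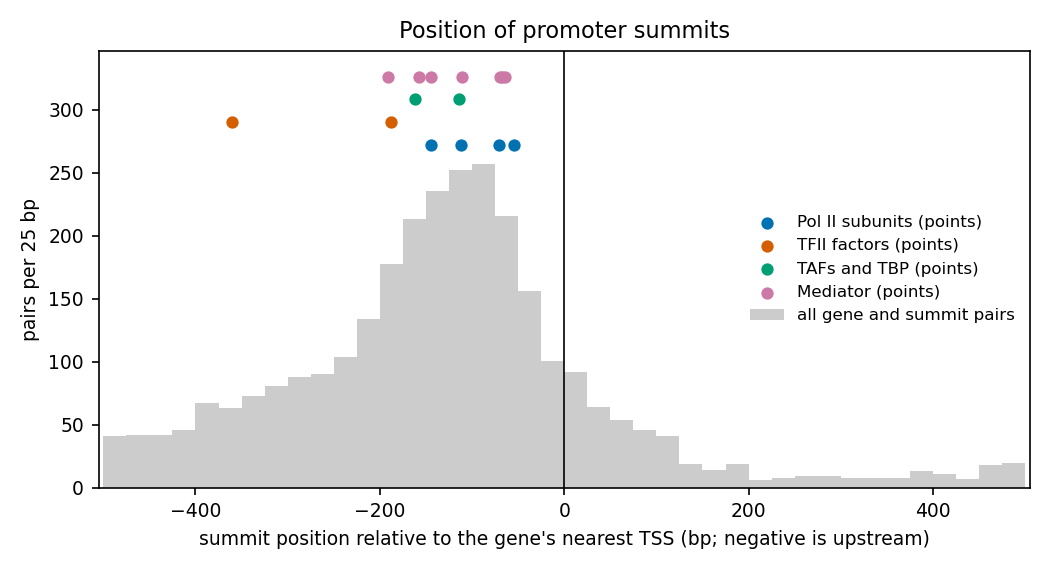
Position of main-set summits relative to the nearest TSS of the gene (horizontal axis, bp, negative values upstream); grey bars count all gene and summit pairs per 25 bp, and points, placed above the bars by subgroup, are the 15 members. All points lie left of the TSS, 14 of them between 50 and 200 bp upstream.

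Most of these summits served as promoter summits of a second gene as well. In 12 of the 15, the summit was also within reach (500 bp) of the start of another protein-coding gene on the opposite strand. A second gene of either strand was thus within reach at 80.0% of the member summits. Over all pairs of a gene and its promoter summit, counted by gene as the members are, it was 53.3% (1575 of 2954), and counted once per summit it was 35.6%. The partners were CG11247 at Polr2H, CG15141 at Polr2J, 140up at Polr2B, pll at TfIIA-L, Bug22 at TfIIB, Pex6 at Taf5, elm at MED27, Rev1 at MED30, Cap-H2 at MED7, CG12321 at MED17, CG11170 at MED16, and CG9775 at MED31. At MED31 the gene slx1, on the same strand, was in reach as well, since it starts at the same base. Their known products have varied tasks: pll encodes the Pelle kinase of Toll signalling, Pex6 a peroxisome assembly factor, Rev1 a DNA polymerase for damaged templates and Cap-H2 a condensin subunit. Polr2F, Taf4 and MED4 had no second gene at the summit. A peak at a shared promoter cannot be assigned to either gene alone, and this holds for the signals of the 12 members with a partner.

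The summit was upstream of both start sites in 11 of the 12 shared promoters. At MED31 it lay 144 bp upstream of the MED31 start and 19 bp inside CG9775. The summit was nearer to the member in 5 promoters, for example 54 bp from Polr2B and 189 bp from 140up. It was nearer to the partner in 7, for example 112 bp from Polr2H and 14 bp from CG11247. Counting each summit only for the nearest gene therefore left 8 of the 63 members with a summit. That share was close to the 13.9% of all genes that kept one, so the larger share of members in the main count was not kept.

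Shared promoters were common among all 63 genes, with or without a peak. A start of another gene lay up to 500 bp from a start of 38 of them (60.3%, against 30.9% of all protein-coding genes), all 38 with such a gene on the opposite strand. Among genes at shared promoters, 12 of 38 members had a summit (31.6%), close to the 34.4% of all genes at shared promoters. Among genes at single promoters, 3 of 25 members had one (12%), and over all genes it was also 12%. At this distance, the share of members with a summit was no higher than that of all genes within either promoter type. This division was made after the data had been seen, and it depends on the distance used. With neighbours counted only within 250 bp, the shares were 20.8% of members at shared and 25.6% at single promoters, beside 31.1% and 16.2% of all genes. With 1000 bp they were 28.9% and 11.1%, beside 29.7% and 10.8%. Signal also went with promoter type: the median was 152 at shared and 122 at single promoter summits over the whole main set, and 320 at the 12 shared and 177 at the 3 single member summits.

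**Figure D4:**
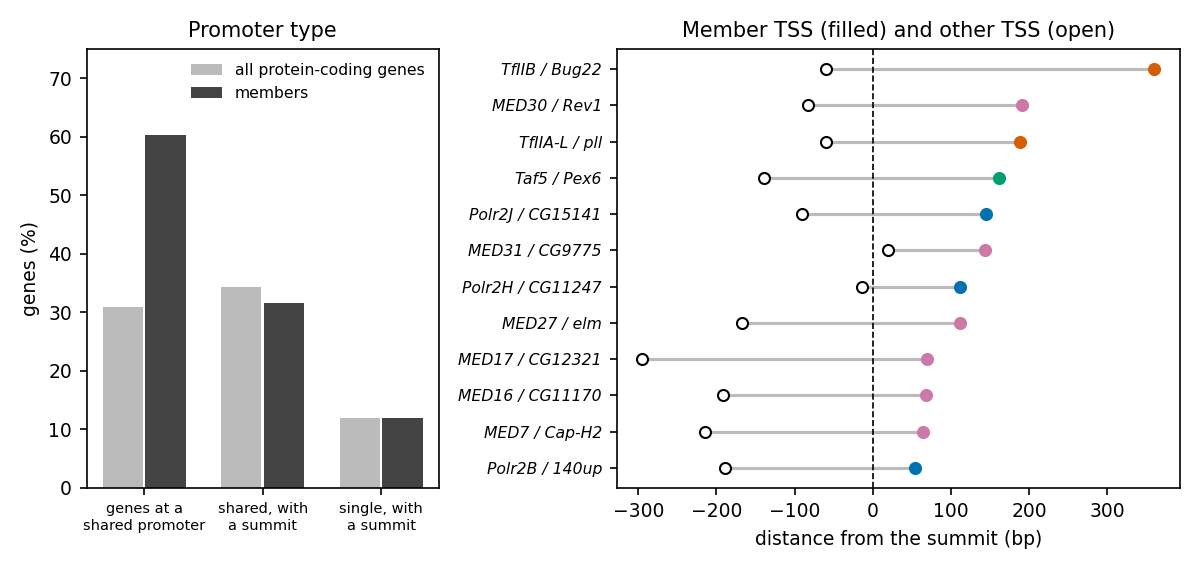
Left, percent of genes (vertical axis) at a shared promoter, and percent with a main-set summit among genes at shared and at single promoters, for all protein-coding genes (light) and members (dark). Right, the 12 shared promoters with the summit at 0 on an axis in bp, the member's TSS as a filled point coloured by subgroup (blue polymerase II, orange TfII, green Taf, pink Mediator) and the other gene's TSS as an open point; the summit lies between the starts in all but MED31 with CG9775.

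The bases around the summits were rich in A and T. Within 50 bp of the summit, A and T made up 52.5% (Polr2F) to 85.1% (Taf5) of the bases, with a median of 69.3%, and 14 of the 15 windows were richer than their own flanks, whose median was 51.0%. Over all promoter summits the median was 65.3%, the flanks had 54.9%, and 73.0% were richer than their flanks.

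Sequence elements known from fly core promoters were searched on both strands within 100 bp of the summit. The DNA replication-related element TATCGATA, which many growth and replication genes carry, was found at MED17 only (1 of 15, against 6.77% of all promoter summits). Its core ATCGATA was at 2 of 15, MED17 and MED27 (13.3%, against 12.4%). The letters CATCNCTA, a core promoter element of housekeeping genes, were at MED27 and MED7 (13.3%, against 6.91%), and GGTCACAC, another such element, was at 0 of 15 (4.02% of all). TATAAA was found at 6 of 15 (40.0%, against 34.8%), GAGAG at 2 (13.3%, against 21.0%) and CAGCTG at 0 (12.6% of all). Within 50 bp of the summit, TATAAA was at 2 members and GAGAG and CATCNCTA at 0. With 15 sequences, none of these counts stands for more than a handful of genes.

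The 6-base sequences in excess at the 5100 main-set peaks outside the members were also looked up, a search added after the data had been seen. It was limited to sequences with 3 or more G or C bases, so A/T-rich ones were not ranked, and ordered them by the difference between the numbers of summits and flanks holding them, divided by the square root of their sum. The first was ACAGTG, found within 100 bp of 20.6% of these summits and in 8.55% of their flanks, and the second was ACACTG. The third was CAGTGC, the fourth was ACTGTG and the fifth was CACTGA. They overlap one another, and all but ACTGTG hold CACTG or its reverse complement. ACAGTG was at 3 member summits (TfIIA-L, MED16 and Polr2F; 20%, against 19.2% of promoter summits) and ACACTG at 4 (Polr2H, Polr2J, MED7 and Polr2F; 26.7%, against 19.7%). CAGTGC was at 2 (13.3%, against 14%), ACTGTG at 1 (6.67%, against 12.9%) and CACTGA at 2 (13.3%, against 13.2%). CACTG itself was at 6 of 15 member summits (40.0%) and in the flanks of 5 of the 15. Over all promoter summits it was at 46.2% and in 36.2% of their flanks. The strong summits of MED27, MED30 and Polr2B were among the 9 without it. Their printed stretches do not hold it either, though at MED30 and Polr2B the searched window runs beyond the stretch.

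Weaker candidates lay at most of the other members. The ranked list, which holds all peaks matched between the replicates with their irreproducible discovery rate (IDR, the rate at which peaks of that rank fail to recur between replicates), had a candidate within 500 bp of a TSS in 53 of the 63 genes, or 84.1%, against 77.7% of all genes. The main set needs an IDR of at most 0.01, a −log10 IDR of 2 or more. Among the 48 members outside the main set, 38 had a candidate, with signals from 17.4 (Polr2K) to 167 (TfIIA-S) and a median of 41.5. The −log10 IDR of the strongest candidate was under 1 in 33 of them, between 1 and 2 in 4 (Taf13, Taf2, TfIIFalpha and Polr2E) and above 2 in 1 (TfIIA-S). Taf10 and Taf10b, neighbouring genes, share their candidate. The 10 genes with no candidate were MED15, MED18, MED20, MED21, MED26, Taf3, Taf12, Polr2D, Polr2L and Polr2M.

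Among these candidates, the order by signal was not always the order by IDR. Taf2, which encodes a TFIID subunit that binds around the start site, had a candidate of signal 124, above the 113 of Polr2F, but its replicate columns were 87.3 and 26.2 and its −log10 IDR was 1.13, against 3.06 for Polr2F. Polr2A, the gene of the largest polymerase II subunit, had a candidate of 75.1 with columns of 57.9 and 15.9 and a −log10 IDR of 0.15. MED6, a head module gene, had 86.2 with columns of 23.4 and 58.1 and a −log10 IDR of 0.782. In Taf2 and Polr2A the first column was the higher and in MED6 the second.

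**Figure D5:**
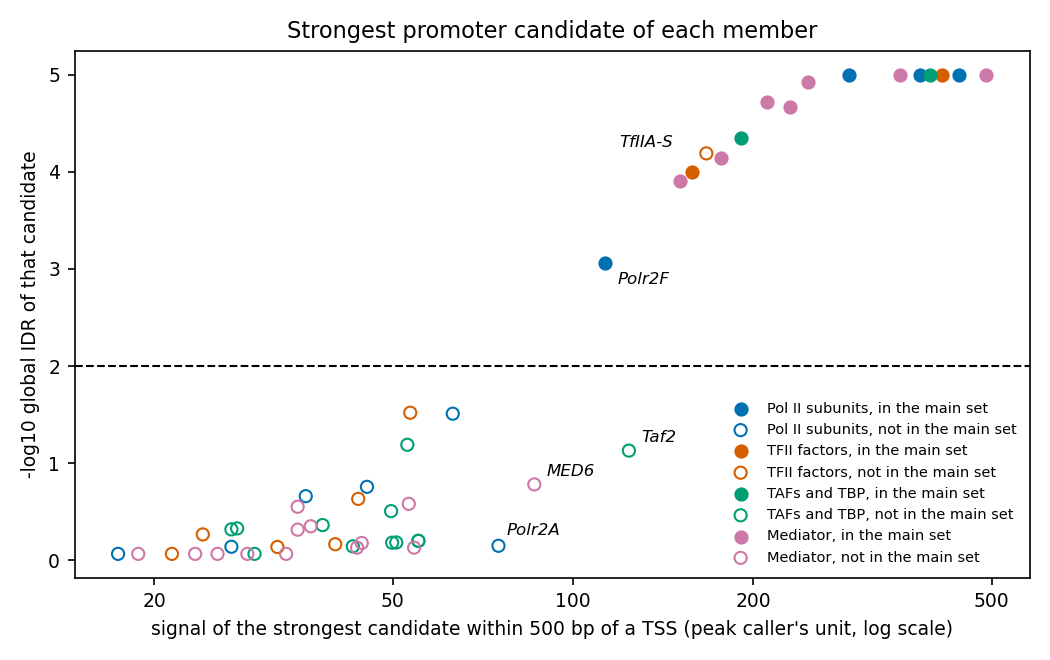
Strongest ranked-list candidate of the 53 members that have one, by signal (horizontal axis, the peak caller's unit on a log scale) and −log10 global IDR (vertical axis); filled points are in the main set, open points are not, colours are subgroups, and the dashed line is the threshold of 2. All filled points lie above the line, and 1 open point, TfIIA-S, does so as well.

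TfIIA-S, which encodes the small subunit of TFIIA, was the exception on the other side. Its candidate at chr3R:23890973-23891296, 75 bp upstream of the start, had a signal of 167, columns of 81.2 and 89.2 and a −log10 IDR of 4.19, past the threshold. It was in none of the 4 thresholded lists. Counted in, it would raise the TfII genes with a summit to 3 of 9. Of 5234 ranked peaks past the threshold, 119 were not in the main set, and 82 of these lay on 3R, the arm of TfIIA-S.

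No member outside the main set had a main-set summit inside its gene beyond the promoter window. The nearest main-set summit to these 48 genes was 829 bp (TfIIS) to 2236940 bp (MED21) away, with a median of 4637 bp. By arm, members with a summit were 7 of 21 on 3R, 4 of 15 on 3L, 2 of 11 on 2L, 2 of 8 on 2R, 0 of 6 on X and 0 of 2 on 4. Over all genes the share was 20% on 3R and on 3L, 18.9% on 2L, 17.8% on 2R, 18% on X and 2.5% on 4. The 6 members on X were Polr2A, Taf8, Taf9, MED18, MED22 and TfIIA-S-2.

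Genes of the same and neighbouring machinery under other names were counted in the same way, as lists drawn up by complex. Of 10 TFIIH genes, which encode the factor that opens promoter DNA, 2 had a summit. These were Ssl1 at a signal of 1792, shared with Chro, and mrn at 563, shared with CG12301. Of the 4 genes of the Mediator kinase module, skd had one at 190. Of 9 genes of TBP relatives and TAFs under other names, NC2alpha, which encodes a subunit of a TBP repressor, had one at 507. These lists were near the 18.9% of all genes, given their size.

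The lists for the steps after initiation, and for the SAGA complex, held larger shares. Pausing and elongation genes had a summit in 8 of 16 (50%): TH1 at 510, Nelf-E at 287 and Nelf-A at 120 of the pausing factor NELF, Spt6 at 161, dre4 at 139, spt4 at 83.9, and hyx at 80.4 and atms at 72.2 of the Paf complex. SAGA, a histone-acetylating coactivator that shares some TAFs with TFIID, had 7 of 14 (50%): Gcn5 at 450, wda at 232, Ada2b at 125, Ada3 at 114, e(y)2 at 103, Spt3 at 88.6 and Sgf11 at 64.6. Integrator, which cleaves RNA made by polymerase II, had 5 of 11 (45.5%): IntS11 at 504, IntS6 at 315, IntS9 at 310, IntS4 at 149 and IntS10 at 110. Of the polymerase I genes, 0 of 7 had a summit. Between 44.4% and 70.0% of the genes in each of these 7 lists were at shared promoters, like the members. For polymerase I, a list of only 7 genes, it was 57.1%. Whether promoter type accounts for the shares of these lists was not tested. All the related summits named, except those of IntS4, Ada2b, dre4, spt4 and hyx, were also within 500 bp of the start of another gene. Their signals cannot be assigned to the named gene alone.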

How the data were processed

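Peak lists of 1 group with 2 biological replicates were analysed. Per the labels, chromatin was sonicated (200 to 800 bp) and the assembly was dm6. The authors derived the lists from both replicates and a control alignment, per the deposited readme; the sources used here name no aligner and no peak caller. The signal of each peak is a deposited value in the peak caller's unit, and −log10 IDR is the authors' value from the ranked lists. Of the deposited lists, 7 were used, and the lists give no read depth.

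Gene models and TSSs came from Ensembl release 115 (BDGP 6.54), and bases from the RefSeq copy of the same release 6 assembly. Summits within 500 bp of any TSS were counted (Python 3.11.15, numpy 2.4.6, pandas 2.3.3). Replicate values came from columns 15 and 19 of the ranked series list. Flanks for sequence searches were 400 to 500 bp from the summit, and 400 to 450 bp for composition. Every member with a main-set summit, and every related gene with one in the lists described, is named; the polymerase III list is not reported here. The counting was tested on simulated summits. The members and lists were chosen with earlier results of these data known, so no test over them was made. Nelf-B and rye had no single match in the annotation and add no gene to the related lists; Taf12L, to which rye may refer, is a member.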

Additional observations from a re-analysis of the deposited data

Results flagged for a closer look

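The TfIIA-S candidate, with a signal of 167 and a −log10 IDR of 4.19, stood past the authors' threshold in the ranked list of the series while appearing in none of the thresholded lists. In the replicates' own ranked lists a peak at the same promoter had signals of 81.2 (−log10 IDR 3.86) and 89.2 (3.70). Of the protein-coding genes, 56 have such a peak within 500 bp of a TSS. The cause was not tested.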

How the results depend on the processing

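Of 102 values recomputed under the alternatives, 78 stayed within the set limits and 24 moved; those of the main counts that moved follow. Counting each summit for the nearest gene only left 8 of 63 members (2 polymerase II, 0 TfII, 1 Taf or Tbp gene). This share is close to the 13.9% of all genes. TfII genes with a summit fell to 1 with a window of 250 bp and to 1 with 1 TSS per gene. The median member signal was 124 on the mean of the replicate columns and 111 to 113 with either replicate left out, on a per-replicate scale; with a replicate left out, the ratio to the promoter median was 1.31 to 1.48. The share of member summits upstream was 94.4% in the less strict list and 92.9% with 1 TSS per gene, and the shared portion was 71.4% at 250 bp and 83.3% in the less strict list. With neighbours within 250 bp, an alternative chosen after seeing the data, 24 members were at shared promoters, 5 of them with a summit, and 10 summits were at single promoters. With a motif window of 50 bp, 6 of the 13 sequence counts moved, among them TATAAA to 2, GAGAG to 0, CATCNCTA to 0 and ATCGATA to 1. No paired analysis was possible because a single group was studied. Depth is unknown, so a member without a summit is not shown to be unbound, and a shared promoter does not tell which gene a peak belongs to.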
